A study of Mus musculus with 9 samples.

Results

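Kit, a single gene of the 37022 genes with a transcript row in the deposited tables, is described here in nascent RNA from CD8+ T cells of the mouse, the lymphocytes that kill infected or transformed cells. The gene was found by its symbol, after transcript identifiers had been matched to the GENCODE M21 annotation, and it was chosen because its signal was high when MEK was inhibited in chronically stimulated cells. The difference between chronic cells with and without the inhibitor is therefore given as a description with no test. The study compared 3 groups of 3 libraries to look at new transcription with a view to exhaustion, the state of weakened function that T cells enter when stimulation does not end. The group named Acute was stimulated acutely, the group named Chronic was stimulated chronically, and the group named ChronicMEKi was stimulated chronically with MEK inhibited. All 9 libraries are labelled as CD8 T cells, and all cells received 0.2 mM 5-ethynyl uridine, a uridine analogue taken up into new RNA, for 30 minutes. The strain, the age of the animals, the manner and length of stimulation and the inhibitor are not given in the labels. Nothing in the labels says that the libraries of a group came from separate animals or cultures, so p-values measure only the spread between these libraries, which may be technical.

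Kit encodes a class III receptor tyrosine kinase on the cell surface. Its ligand is stem cell factor, the product of Kitl, and binding of the ligand passes signals through PI3-kinases, SRC-family kinases and the RAS-MEK-ERK cascade. The receptor is best known from blood stem and progenitor cells, mast cells, melanocytes, germ cells and the pacemaker cells of the gut, and mature CD8+ T cells are not a classic site of its expression. MEK, the kinase that phosphorylates ERK, thus lies downstream of this receptor as well as of the T cell receptor.

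Kit (ENSMUSG00000005672.12) lies on chromosome 5, from 75574916 to 75656722 on the plus strand of build GRCm38, and spans 81.8 kb. It overlaps 0 other annotated genes, so its signal shares no annotated sequence with a neighbour on either strand. The stretch just upstream of its first annotated start is shown as the sequence next to where transcription of Kit is annotated to begin. It comes from the RefSeq promoter table for GRCm38.p6, chr5:75574737-75574915, plus strand, 179 bases, and capitals mark the matches to the motif letters GGAA (the core of ETS sites) and GGGCGG (a GC box).

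Kit upstream stretch: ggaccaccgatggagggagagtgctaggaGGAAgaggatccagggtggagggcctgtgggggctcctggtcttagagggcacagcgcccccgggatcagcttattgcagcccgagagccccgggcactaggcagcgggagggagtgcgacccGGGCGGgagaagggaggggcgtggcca

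Both strands of this window were searched. The GC box match ends 22 bases before the first annotated start, and 20.7% of 27025 promoters hold such a match in a window of the same length and position. The GGAA match ends 147 bases before it, and 86.4% of the promoters hold that short motif. No match was present for the E-box letters CANNTG, which 55.3% of promoters hold, or for the letters GATA, held by 46.2%. The RUNX letters TGTGGT (in 10.3% of promoters) were absent as well, and so were the AP-1 letters TGANTCA (in 5.05%). A TATA box, spelled TATAAA and held by 8.66% of promoters, was not found, nor was the core of an interferon response element (in 2.25%). The window is rich in G and C, at 69.3% against a median of 50.8%, and holds 10 CG dinucleotides against a median of 3. A match in these letters describes the sequence and says nothing about which factor was bound in these cells.

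Nascent Kit RNA was low in chronic cells, intermediate in acute cells and high in chronic cells with MEK inhibited. Values are gene-body signal, the deposited signal over a transcript, multiplied by a scale factor for each library; it has no unit of its own. In the acute libraries the scaled signal of Kit was 414.9, 470.7 and 472.2, with a mean of 453 ± 32.6 (SD, n = 3). In the chronic libraries it was 34.9, 88.3 and 50.6, with a mean of 57.9 ± 27.4 (SD, n = 3). In the MEK-inhibited libraries it was 2730, 2532 and 2267, with a mean of 2510 ± 232 (SD, n = 3). The 3 groups did not overlap: the lowest MEK-inhibited library was 4.80 times the highest acute one, and the lowest acute library was 4.70 times the highest chronic one.

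**Figure D1:**
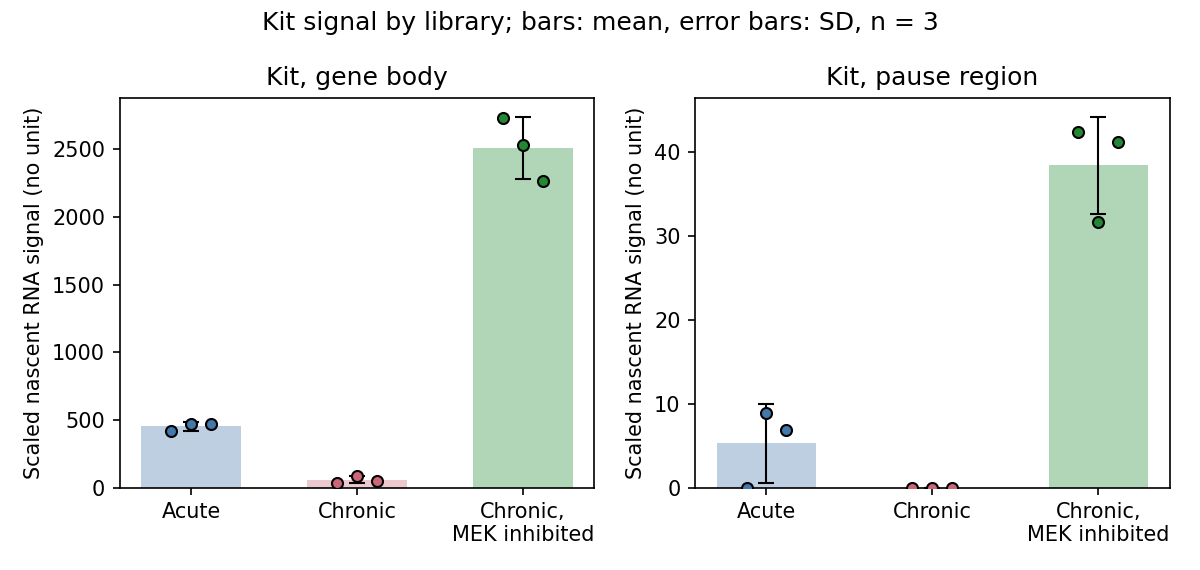
Scaled nascent RNA signal of Kit in each library (points), with the group mean (bars) and SD (error bars, n = 3), for the gene body on the left and the pause region near the start on the right. The MEK-inhibited libraries lie between 2267 and 2730 in the gene body, above all acute and chronic libraries, and the chronic libraries are listed at 0 in the pause region.

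The ratio of group means was 43.3 between chronic cells with and without MEK inhibition, and even the closest pair of libraries differed 25.7-fold. On the log2(signal + 5) scale, which understates changes of weak genes, this difference was 5.41, and it ranked 1 from the top among 15942 genes tested. Since Kit was picked on this contrast, the rank describes the choice and is not evidence for it. A gene was called when limma's p, adjusted over all genes tested by the Benjamini-Hochberg method, was under 0.05. By that rule 17.6% of genes were called between the same groups, 9.93% higher and 7.65% lower with the inhibitor.

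Between chronic and acute cells Kit fell by 2.95 on the log2 scale (SE 0.253, limma adjusted p = 4.43e-08), lower in 3 of 3 chronic libraries than in any acute one. The acute mean was 7.81 times the chronic mean. In this comparison 33.9% of genes were called, 18.0% higher and 15.9% lower, and Kit ranked 92 from the bottom. With MEK inhibited, Kit passed the acute level: it was higher than in acute cells by 2.46 (SE 0.253, limma adjusted p = 8.49e-07), 5.55-fold by the means. In that comparison 25.8% of genes were called, 14.4% higher and 11.5% lower, and Kit ranked 42 from the top. The comparison of chronic with acute cells uses the chronic libraries that chose Kit, and the comparison of MEK-inhibited with acute cells uses the MEK-inhibited libraries that chose it, so neither is independent of that choice. In RNA from whole cultures, a few cells with much Kit RNA and many cells with little cannot be told apart.

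Per kilobase of gene, the Kit gene body held a mean scaled signal of 5.53 in acute cells, at percentile 21.6 of the genes tested. It held 0.708 per kilobase in chronic cells, at percentile 9.15, and 30.7 in MEK-inhibited cells, at percentile 45.0. The median gene stood at 35.5, 36.4 and 37.6 per kilobase in those groups. With MEK inhibited, Kit thus moved from among the weakest tested genes to somewhat below the median gene, on this scale of level per length.

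The pause region, the stretch close to the start where RNA polymerase can halt before elongation, followed the same order at a far lower signal. Its scaled signal was 0, 8.90 and 6.92 in acute libraries, and it was listed at 0 in all 3 chronic libraries. In the MEK-inhibited libraries it was 42.4, 31.7 and 41.2, with a mean of 38.4 ± 5.83 (SD, n = 3), above every acute library. These values were too low for the filter on weak genes (50 or more in at least 3 libraries), so no model was fitted to the pause region of Kit. As a percentage of the scaled gene-body signal, the scaled pause-region signal was 1.55, 1.25 and 1.82 in MEK-inhibited libraries and 0, 1.89 and 1.47 in acute libraries. Each region was scaled by factors of its own, so these are ratios of scaled values and not shares within a library. The percentages of the MEK-inhibited and acute groups overlap, and in chronic cells none can be read from a pause region listed at 0.

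The tables hold 8 transcript rows of Kit. The values above are those of Kit-204 (ENSMUST00000144270.7), the row with the largest mean signal, and Kit-201 spans nearly the same stretch with nearly the same values. The other 6 rows are shorter transcripts inside the gene, so they share sequence with these and in part with each other, and they show where along the gene the signal lay. Kit-203, 35.7 to 46.0 kb from the start of the gene, had 53.3 ± 1.46 (SD, n = 3) in acute cells, 1.499 ± 2.60 in chronic cells and 200.6 ± 24.2 in MEK-inhibited cells. Kit-202, 66.2 to 71.1 kb along, had 63.4 ± 23.2, 17.0 ± 10.5 and 460 ± 184 in the same order. Both rows thus had the order of the whole gene, chronic below acute below MEK-inhibited, with no overlap between groups in either row.

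Kit-205, 70.8 to 77.9 kb along, had 38.8 ± 12.3, 9.68 ± 16.8 and 196 ± 68.8 (SD, n = 3). Kit-208, from 74.2 kb to the end of the gene, had 82.1 ± 10.7, 23.6 ± 35.2 and 611 ± 80.6. Groups overlapped in Kit-207, where chronic replicate 2, at 14.5, was above every acute library (9.60, 14.4 and 13.6). They also overlapped in Kit-206, where MEK-inhibited replicate 1, at 4.01, was below acute replicate 3, at 6.12. The MEK-inhibited mean was above the acute mean in every row, by 3.37-fold in Kit-206, a row with little signal, 3.76-fold in Kit-203, 5.04-fold in Kit-205, 6.65-fold in Kit-207, 7.26-fold in Kit-202 and 7.44-fold in Kit-208. All 4 rows that begin at 66.2 kb or later thus had larger ratios than the 2 rows before them, a difference that was not tested. The regions that the authors counted within each row are not given in the sources used here.

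**Figure D2:**
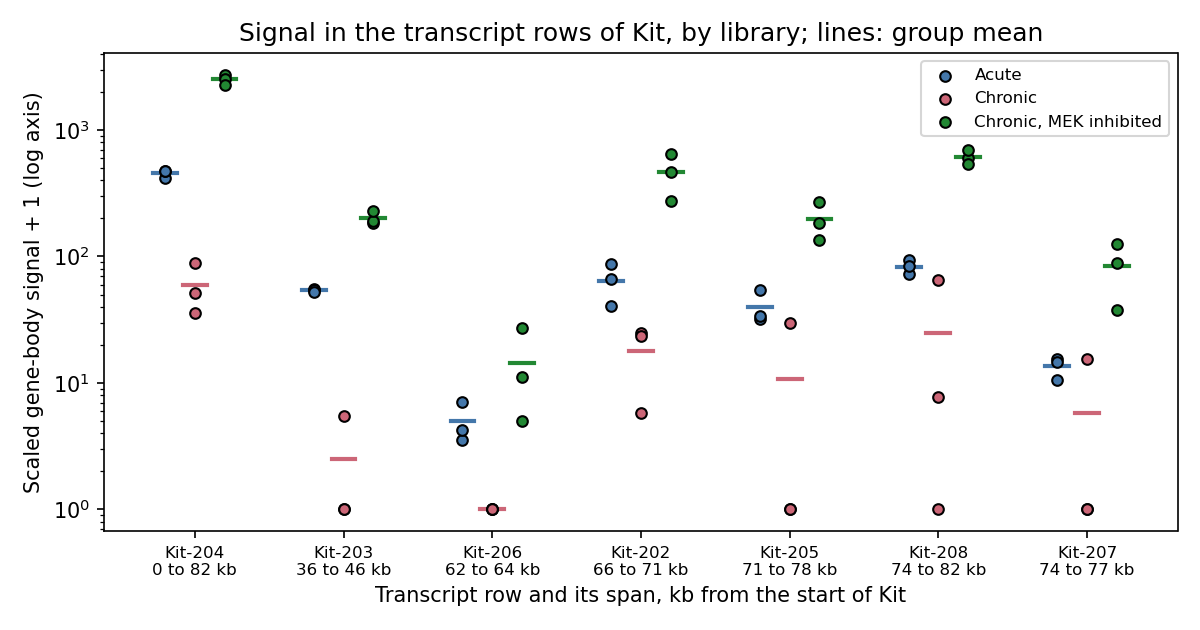
Scaled gene-body signal plus 1 (log axis) of 7 Kit transcript rows, placed by their span in kb from the start of the gene; points are libraries and lines are group means. The MEK-inhibited mean is above the acute mean and the acute mean above the chronic mean in every row, and chronic values of 0 sit at the bottom of the axis.

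The chronic libraries differed in where their little signal lay. Kit-208 held 17.1%, 19.6% and 17.6% of the Kit-204 signal in acute libraries and 21.7%, 21.3% and 30.8% in MEK-inhibited libraries. In chronic libraries it held 0, 72.6% and 13.3%, so most of the signal of chronic replicate 2, the highest chronic library, lay in the last stretch of the gene. When that stretch was taken out, an alternative added after seeing the data, the chronic libraries were closer together at 34.9, 24.2 and 43.8. The acute libraries then had 344, 378 and 389, and the MEK-inhibited ones 2136, 1992 and 1569. The log2 differences became -3.28 for chronic against acute cells, 2.33 for MEK-inhibited against acute cells and 5.62 for MEK-inhibited against chronic cells.

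Inhibition of MEK was visible in the genes that report on the cascade. Dusp6, the ERK phosphatase that ERK itself induces, had a scaled signal of 2379, 2315 and 2491 in chronic libraries and 210.7, 207.9 and 192.7 in MEK-inhibited ones, a log2 change of -3.52 (limma adjusted p = 5.2e-12). Etv5, an ETS factor induced by ERK, changed by -3.80. All 10 of 10 genes on a list of MEK-ERK output genes fell in MEK-inhibited against chronic cells, against 7.65% of all genes. Between chronic and acute cells 6 of the 10 rose and 1 fell, against 18.0% and 15.9% of all genes. Between MEK-inhibited and acute cells 2 were higher and 4 lower, against 14.4% and 11.5%. This list was known from earlier results of these data.

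The annotated genes nearest to Kit on chromosome 5 were quiet. Of 38 annotated genes within 1 Mb of either end, 13 passed the filter, 10 of them protein-coding, and no scaled signal among the other 25 exceeded 35.6. The tested genes that are not protein-coding, Gm43747, Gm42576 and Gm43658, lie within Fip1l1, Chic2 and Clock. The 13 are thus not all separate stretches. The nearest tested gene before Kit was Pdgfra, the receptor of platelet-derived growth factor (chromosome 5, 75152292 to 75198215), 377 kb away, and the nearest after it was Srd5a3, an enzyme of dolichol synthesis, 484 kb away. The 10 genes between them and Kit, among them Kdr, had scaled signals of at most 31.3 in any library. In acute and MEK-inhibited cells Kit thus stood alone among the annotated genes of this stretch, while its own lowest chronic library was at 34.9. Signal outside annotated genes was not read.

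No neighbour was called between MEK-inhibited and chronic cells by limma, against 17.6% of all genes tested. At an unadjusted p under 0.05, 2 of the 13 would pass, and the lowest adjusted p was 0.0746. Their log2 changes ran from -0.40 to 0.60 with a median of 0.06, where Kit had 5.41. Between MEK-inhibited and acute cells 0 of 13 were called as well, against 25.8% of all genes, with 2 at an unadjusted p under 0.05, a lowest adjusted p of 0.0602 and changes from -0.24 to 0.41. Pdgfra, with a signal near the filter, had an error wide enough that a change of its size was not detectable.

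Between chronic and acute cells, 3 of the 13 neighbours were called, where 33.9% of all genes tested were. Srd5a3 fell by 0.67 (limma adjusted p = 0.0078), with 768, 787 and 673 in acute libraries against 599, 427 and 389 in chronic ones. Chic2, a membrane protein gene, fell by 0.42 (limma adjusted p = 0.0059). Clock, the circadian transcription factor, was 0.33 higher, but this turned to -0.16 when libraries were scaled by their totals, and the call was lost without acute replicate 2 (limma adjusted p = 0.0594), acute replicate 3 (0.0693) or chronic replicate 2 (0.0677). The other protein-coding neighbours, Fip1l1, Lnx1, Pdgfra, Tmem165, Exoc1, Cep135 and C530008M17Rik, were not called in any of the comparisons.

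**Figure D3:**
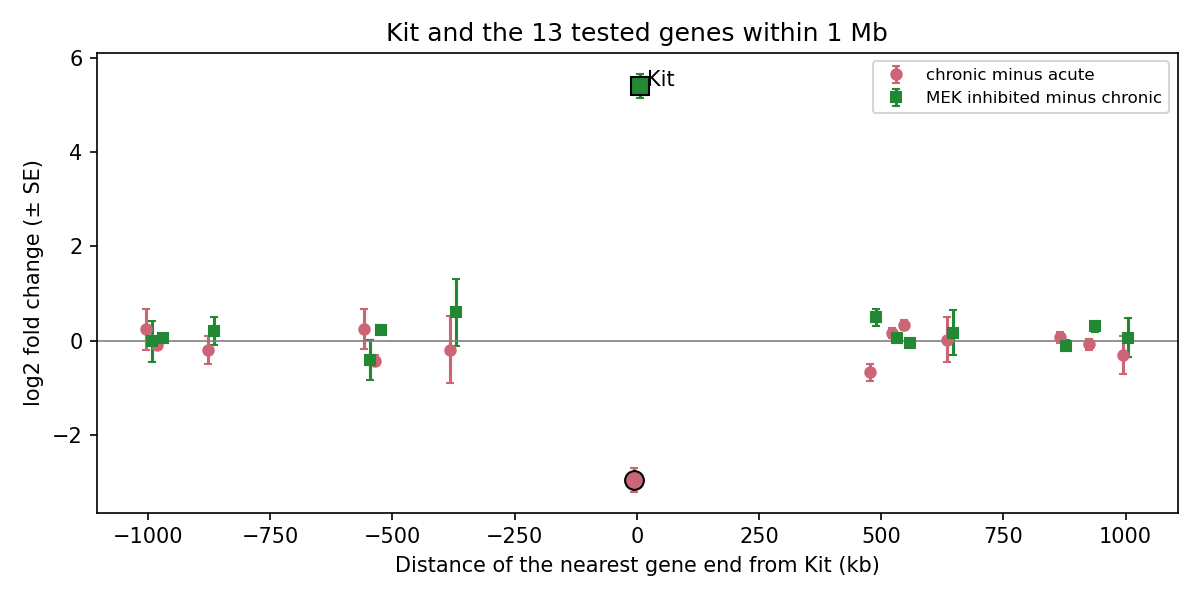
Log2 fold change of gene-body signal (with SE) for Kit, outlined in black at 0 kb, and the 13 tested genes within 1 Mb, against the distance of their nearest end from Kit in kb. Kit stands at 5.41 for MEK-inhibited minus chronic and -2.95 for chronic minus acute, while the neighbours lie between -0.67 and 0.60 in both comparisons.

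The ligand of Kit was close to silent in these cells. Kitl, which encodes stem cell factor, had a scaled signal of 62.1, 5.2 and 33.3 in acute libraries, 25.9, 46.0 and 23.6 in chronic ones and 7.2, 46.7 and 33.3 in MEK-inhibited ones. The groups overlapped throughout, and the gene did not pass the filter.

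The relatives of Kit among the receptor tyrosine kinases had low signal in all groups. Pdgfra, Csf1r (the receptor of macrophage colony-stimulating factor) and Flt3 (a receptor of blood progenitors) passed the filter, and 0 of these 3 were called by limma in any comparison, with 0 at an unadjusted p under 0.05. Over all genes tested, 33.9% were called between chronic and acute, 17.6% between MEK-inhibited and chronic and 25.8% between MEK-inhibited and acute cells. Csf1r had means of 77.3, 54.3 and 80.4 in acute, chronic and MEK-inhibited cells, and Flt3 45.9, 29.7 and 29.8. Pdgfra had 46.8, 31.3 and 59.4, from libraries as far apart as 9.8 and 87.1 within the acute group. Pdgfrb, with means of 26.2, 18.3 and 22.7, and Kdr, the receptor of vascular endothelial growth factor that lies next to Kit, with 23.3, 4.5 and 15.5, did not pass it.

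Genes of the Kit signalling pathway were then read from a list of 47 symbols: ligand, adaptors, kinases, other effectors, phosphatases and ubiquitin ligases. Of these, 46 had a row and 44 passed the filter, all but Btk (no row), Kitl and Grb10. Between chronic and acute cells 6 of 44 rose and 13 fell, together 43.2% against 33.9% of all genes tested, with a median log2 change of -0.08 against -0.02 over all genes. With libraries scaled by their totals these were 3 higher and 29 lower, with a median of -0.57, where the median gene itself shifted by -0.49. Between MEK-inhibited and chronic cells 15 rose and 6 fell, 47.7% against 17.6%, with a median of 0.32 against 0.04. Without MEK-inhibited replicate 1 these counts were 6 higher and 5 lower; over all genes the higher calls went from 1583 to 933. Between MEK-inhibited and acute cells 8 rose and 7 fell, 34.1% against 25.8%, with medians of 0.01 and 0.00. Without MEK-inhibited replicate 1 these were 3 and 8, without acute replicate 1 they were 4 and 8, without acute replicate 3 they were 4 and 9, and with libraries scaled by their totals 1 and 20.

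SRC-family kinases phosphorylate and are recruited by the activated receptor. Src had a scaled signal of 661, 587 and 579 in acute libraries, 167, 198 and 244 in chronic ones and 362, 558 and 661 in MEK-inhibited ones. It fell by 1.58 between chronic and acute cells (limma adjusted p = 3.6e-05) and rose by 1.33 with MEK inhibition (limma adjusted p = 0.00045). Fyn also fell between chronic and acute cells, by 1.52, and was lower in MEK-inhibited than in acute cells by 1.15 on the log2 scale. Lyn was 0.82 higher in MEK-inhibited than in acute cells (limma adjusted p = 0.0097), but not with libraries scaled by their totals (0.148) or without acute replicate 2 (0.0704). Matk, a kinase that restrains SRC-family kinases and binds Kit, fell by 1.36 between chronic and acute cells. It rose by 1.05 with MEK inhibition (limma adjusted p = 0.0238), a call lost without chronic replicate 1 (0.0981) or 2 (0.071) or MEK-inhibited replicate 1 (0.103) or 3 (0.0725).

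Among the PI3-kinases, Pik3cg, the catalytic subunit activated by G protein-coupled receptors, went the other way from Kit. This gene (ENSMUSG00000020573.17) lies on chromosome 12, from 32173473 to 32208659. It had 2575, 2200 and 2782 in acute libraries, 5424, 5942 and 5423 in chronic ones and 854, 1006 and 879 in MEK-inhibited ones. Its log2 changes were 1.16 between chronic and acute cells, -2.61 with MEK inhibition (limma adjusted p = 2.3e-11) and -1.46 between MEK-inhibited and acute cells, with no overlap of groups. Pik3cb, the beta catalytic subunit, was 0.91 higher in MEK-inhibited than in acute cells (limma adjusted p = 0.00067).

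Among adaptors, Grb7 rose by 1.45 with MEK inhibition (limma adjusted p = 0.00093), to 924, 910 and 946 from 602, 233 and 266. Sh2b2 rose by 1.29 between chronic and acute cells (limma adjusted p = 0.0224), a call lost with libraries scaled by their totals (0.134) and without acute replicate 1 (0.0721) or 2 (0.0598) or chronic replicate 1 (0.0962). Dok2, a docking protein that dampens signals, was highest in chronic cells, with means of 1441, 3116 and 2294 in acute, chronic and MEK-inhibited cells. Its log2 changes were 1.12 between chronic and acute cells and -0.45 with MEK inhibition. It was 0.67 higher in MEK-inhibited than in acute cells (limma adjusted p = 0.00022), but not under scaling by totals (0.0977). Of the genes named, Fyn, Lyn and Dok2 overlap another annotated gene, and since no source says whether strand was used, their signal is uncertain.

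**Figure D4:**
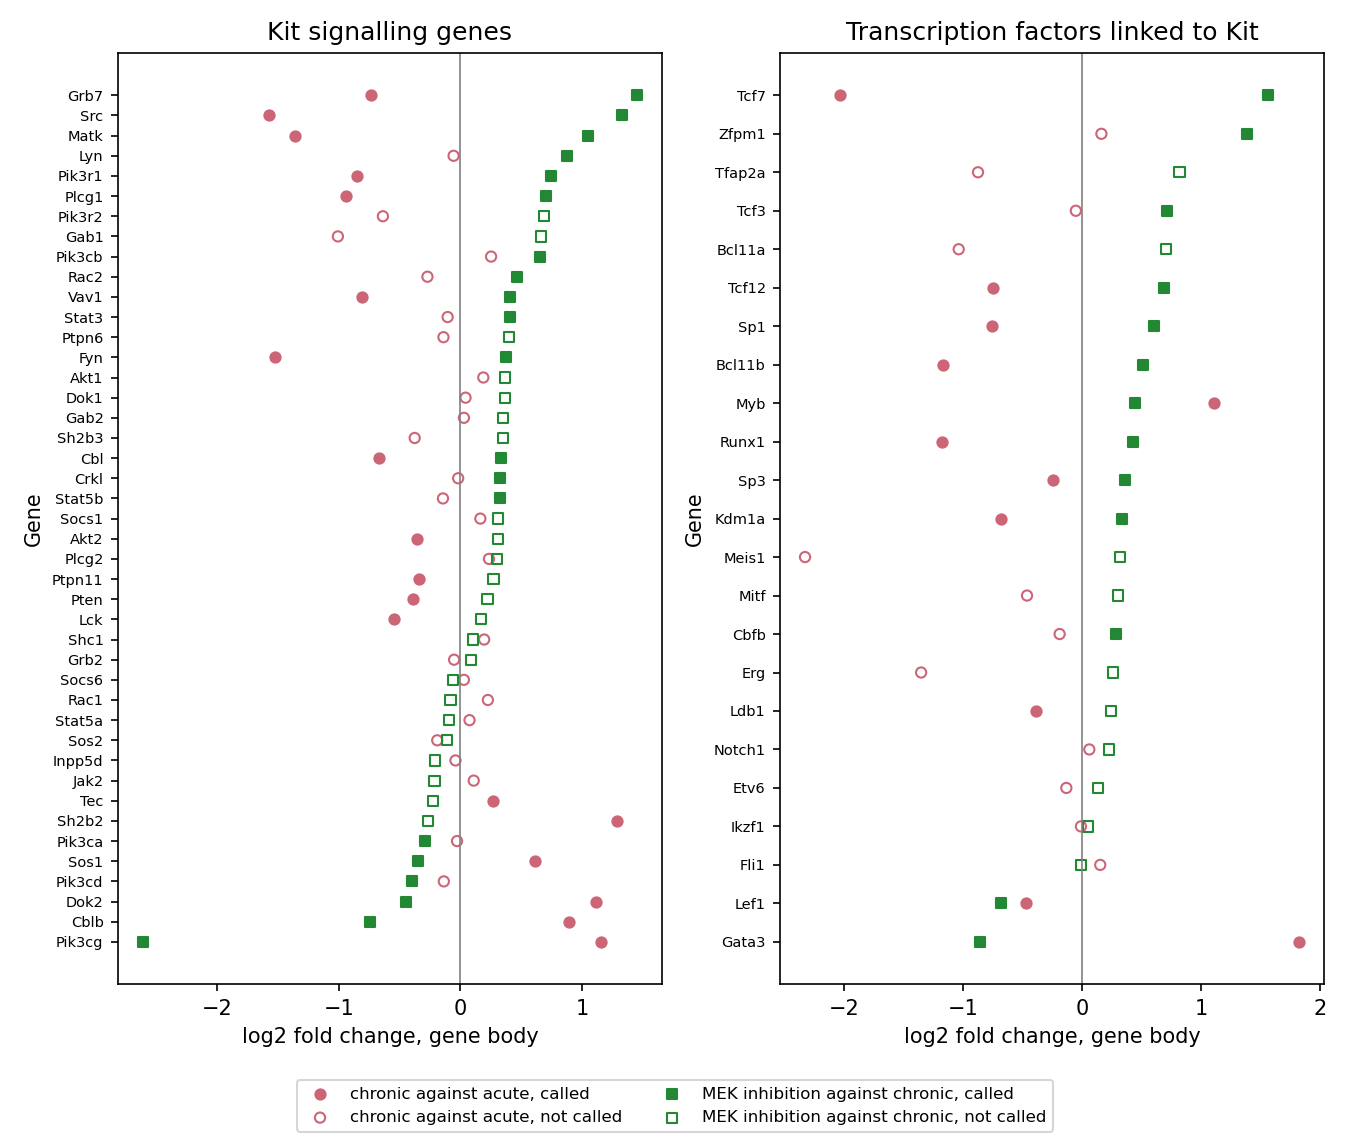
Log2 fold change of gene-body signal for the tested signalling genes, 1 of which is not shown, and the 23 tested transcription factors, ordered by the change with MEK inhibition; filled symbols were called by limma and open ones were not. Grb7, Src and Tcf7 lie far right with MEK inhibition (green) and left in chronic cells (red), while Pik3cg and Gata3 lie the other way round.

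A list of 30 transcription factors and cofactors reported in other cells to bind the Kit locus or control Kit was read in the same way. Of these, 29 had a row and 23 passed the filter. Between chronic and acute cells 2 rose and 9 fell, 47.8% against 33.9% of all genes tested, with a median of -0.46 against -0.02. With libraries scaled by their totals 2 were higher and 17 lower, with a median of -0.95. Between MEK-inhibited and chronic cells 11 rose and 2 fell, 56.5% against 17.6%, with a median of 0.34 against 0.04. The 11 rises became 7 without MEK-inhibited replicate 1. Between MEK-inhibited and acute cells 4 rose and 5 fell, 39.1% against 25.8%, with a median of -0.06 against 0.00. Scaled by totals these were 3 and 10, with a median of -0.44.

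Of the factors tied to Kit in blood progenitors and mast cells, GATA2 and TAL1 were near silent. Gata2 had means of 46.4, 9.8 and 21.9 in acute, chronic and MEK-inhibited cells, Tal1 had 32.4, 12.0 and 17.4, and neither passed the filter. Gata3, the GATA factor of T cells, had 7784, 8795 and 8228 in acute libraries, 28285, 29741 and 29661 in chronic ones and 16440, 15155 and 16818 in MEK-inhibited ones. It rose by 1.82 between chronic and acute cells and fell by 0.86 with MEK inhibition, but remained 0.96 above acute cells (limma adjusted p = 1.1e-11, 4.3e-07 and 7.0e-08). Its order, acute lowest and chronic highest, is not that of Kit.

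Zfpm1, which encodes FOG1, a partner protein of GATA factors, stood higher in the MEK-inhibited group than in either of the others. It had 2126, 2785 and 1985 in acute libraries, 2583, 2564 and 2488 in chronic ones and 7227, 6780 and 6026 in MEK-inhibited ones. It rose by 1.39 with MEK inhibition and was 1.55 above acute cells (limma adjusted p = 1.0e-07 and 1.9e-08), while chronic and acute cells differed by 0.16 (limma adjusted p = 0.31). Myb, a factor of progenitors and stem-like T cells, rose by 1.10 between chronic and acute cells and was 1.55 higher in MEK-inhibited than in acute cells. Its further 0.45 over chronic cells (limma adjusted p = 0.0066) was lost without MEK-inhibited replicate 1 (0.0571).

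Tcf7, which encodes TCF1 of stem-like T cells, had the order of Kit only in part. It had 1404, 1893 and 1574 in acute libraries, 426, 386 and 360 in chronic ones and 1323, 1104 and 1067 in MEK-inhibited ones. It fell by 2.03 in chronic cells and rose by 1.56 with MEK inhibition (limma adjusted p = 7.9e-09 and 6.6e-07). It did not exceed the acute level: it was 0.47 lower there (limma adjusted p = 0.0295), a call lost without acute replicate 2 (0.0772) or MEK-inhibited replicate 2 (0.0793) or 3 (0.117). Lef1, its relative, was lower in MEK-inhibited than in acute cells by 1.15 on the log2 scale.

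Runx1 and Bcl11b, factors of T cell identity, fell by 1.17 and 1.16 between chronic and acute cells. With MEK inhibition Bcl11b rose by 0.51 (limma adjusted p = 0.0043) and Runx1 by 0.43 (limma adjusted p = 0.0265), the latter lost without acute replicate 1 (0.0558), chronic replicate 2 (0.0629) or 3 (0.0916), or MEK-inhibited replicate 1 (0.146) or 2 (0.0938). Both remained below acute cells, with log2 differences of -0.65 for Bcl11b and -0.75 for Runx1. The E proteins Tcf3 and Tcf12 rose by 0.71 and 0.68 with MEK inhibition (limma adjusted p = 0.0038 and 5.7e-05). The 4 factors called higher in MEK-inhibited than in acute cells were Zfpm1, Myb, Gata3 and Tcf3, the last by 0.66, but not under scaling by totals (limma adjusted p = 0.181). Gata3, Zfpm1, Myb, Tcf7, Lef1, Runx1 and Tcf12 overlap another annotated gene, so their signal is uncertain as above.

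The libraries carried the markers of the labelled cell type. All 10 CD8+ T cell markers passed the filter, and their summed scaled signal was 43500 to 51629 in acute, 30237 to 33314 in chronic and 40193 to 43730 in MEK-inhibited libraries. Cd8a itself had 3653, 4340 and 4189 in acute libraries, 832, 902 and 1171 in chronic ones and 2997, 2580 and 3064 in MEK-inhibited ones. Of the markers, 7 fell and 0 rose between chronic and acute cells, against 15.9% lower and 18.0% higher over all genes tested. With MEK inhibition 4 rose (Cd8a, Cd8b1, Thy1 and Cd3e) and 1 fell (Cd5), against 9.93% and 7.65% over all genes, though the call of Cd5 was lost under another scaling, and that of Cd3e without chronic replicate 2 (limma adjusted p = 0.0516) or MEK-inhibited replicate 1 (0.254). Between MEK-inhibited and acute cells 0 rose and 3 fell (Cd8a, Cd2 and Cd5), against 14.4% and 11.5% over all genes, where Kit was higher. The call of Cd2 was lost without MEK-inhibited replicate 3 (limma adjusted p = 0.0782), and that of Cd5 without acute replicate 1 (0.0592) or without either of MEK-inhibited replicates 2 (0.107) and 3 (0.151). Their part in the Kit result was not tested.

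Other cells that express Kit had little signal. Of 12 mast cell markers 0 passed the filter, and their sum was 133 to 256 in acute, 46.0 to 99.2 in chronic and 46.5 to 222 in MEK-inhibited libraries. The MEK-inhibited range overlapped both others, but every chronic sum was below every acute one, the direction that Kit had between those groups. The part of such cells in the Kit result was not tested. The mast cell carboxypeptidase Cpa3 had 33.9, 22.3 and 63.9 in acute libraries and 12.8, 47.5 and 32.3 in MEK-inhibited ones. Of 10 blood progenitor markers 9 had a row and 4 passed, with sums of 252 to 3559, 333 to 360 and 168 to 756, and Elane was at 0 in every library. The high acute value is that of Meis1 in acute replicate 3, 2975 against 110 and 41.3 in the other acute libraries. By limma, 0 of the 4 were called in any comparison, against the 33.9%, 17.6% and 25.8% of all genes given above; at an unadjusted p under 0.05 there were 0 between chronic and acute cells and 1 in each of the other comparisons.

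Of 10 markers of innate lymphoid cells and early thymocytes 2 passed the filter, Eomes and Il1rl1, with sums of 1448 to 1529, 1034 to 1967 and 1628 to 1826. Il1rl1 fell between chronic and acute cells (log2 change -1.99, limma adjusted p = 0.0389), a call lost without any of the 6 libraries of those groups or MEK-inhibited replicate 3 (0.0504 to 0.116). Of 10 myeloid and dendritic cell markers 3 passed, with sums of 285 to 352, 246 to 331 and 180 to 390. S100a8, which did not pass, was at 0 in all acute and chronic libraries but not in all MEK-inhibited ones. Of 6 B cell markers 3 passed, with sums of 695 to 852, 389 to 454 and 247 to 676. Cd79a, a subunit of the B cell receptor, was lower than in acute cells in chronic cells (-1.69, limma adjusted p = 0.0023) and in MEK-inhibited cells (-1.22, limma adjusted p = 0.026), the latter lost when acute replicate 1 (0.057), acute replicate 2 (0.0532) or the MEK-inhibited replicate 3 (0.161) was left out. In each of these 3 sums the MEK-inhibited range overlapped the chronic one. Against the acute range, the MEK-inhibited sum of the innate lymphoid and early thymocyte list was higher without overlap, the direction that Kit had between those groups. Only Eomes and Il1rl1 of that list passed the filter, and its chronic sums, 1034 to 1967, reached below and above the acute ones. Against the acute range, the MEK-inhibited sum was lower without overlap for B cells and overlapped for myeloid and dendritic cells. The B cell sums of chronic libraries also lay below all acute ones. The part of these cells in the Kit result was not tested. Gata2, Flt3, Meis1 and Csf1r stand in more than 1 of the lists.

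The 2 genes taken as markers of the CD4 lineage moved in opposite directions. Zbtb7b, the factor that commits thymocytes to that lineage and is also found in activated CD8+ T cells, had 788, 921 and 657 in acute libraries, 1039, 1056 and 910.5 in chronic ones and 1588, 1911 and 1806 in MEK-inhibited ones. It rose by 0.82 with MEK inhibition (limma adjusted p = 0.00048). Cd4 itself, the defining marker, was lowest in MEK-inhibited cells, with 141, 105 and 101 against 344, 214 and 144 in chronic and 496, 446 and 383 in acute libraries. The sum of both genes was 1040 to 1367 in acute, 1054 to 1383 in chronic and 1729 to 2016 in MEK-inhibited libraries, and its part in the Kit result was not tested.

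The genes whose pattern was most like that of Kit were taken by Pearson's r over the 9 libraries, on log2 of scaled signal, among 11113 named genes with a mean of at least 100 in their highest group. The 8 highest were Rtn4rl1, a Nogo receptor-like protein (r = 0.991), Adcy5, an adenylyl cyclase (0.986), Irf8, an interferon regulatory factor (0.979), Stard3nl (0.977), Tnfrsf1b, the second receptor of tumour necrosis factor (0.974), the kinase gene Sbk1 (0.974), Cxcr4, the receptor of the chemokine CXCL12 (0.972), and Camk2b, a calmodulin-dependent kinase (0.972). These are descriptions: the 9 points are 3 groups of 3, 138 genes had r over 0.9, and 0 of the 8 were listed among the 8 highest by Spearman's rho. That count depends on how ties were ordered: Rtn4rl1, Stard3nl and Camk2b had a rho of 0.95, equal to that of the last gene listed. Rtn4rl1 had means of 679, 185 and 1608 and Adcy5 had 704, 182 and 1805 in acute, chronic and MEK-inhibited cells. Cxcr4 had 438, 212 and 784. Adcy5, Irf8 and Stard3nl overlap another annotated gene, so their signal is uncertain as above. With MEK inhibition the 8 genes changed by 1.01 to 3.28 on the log2 scale, where Kit changed by 5.41. For Irf8 and Tnfrsf1b, the step from acute to MEK-inhibited cells (0.37 and 0.30) turned negative under at least 1 other scaling, whereas that of Kit stayed at 2.08 with libraries scaled by their totals.

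**Figure D5:**
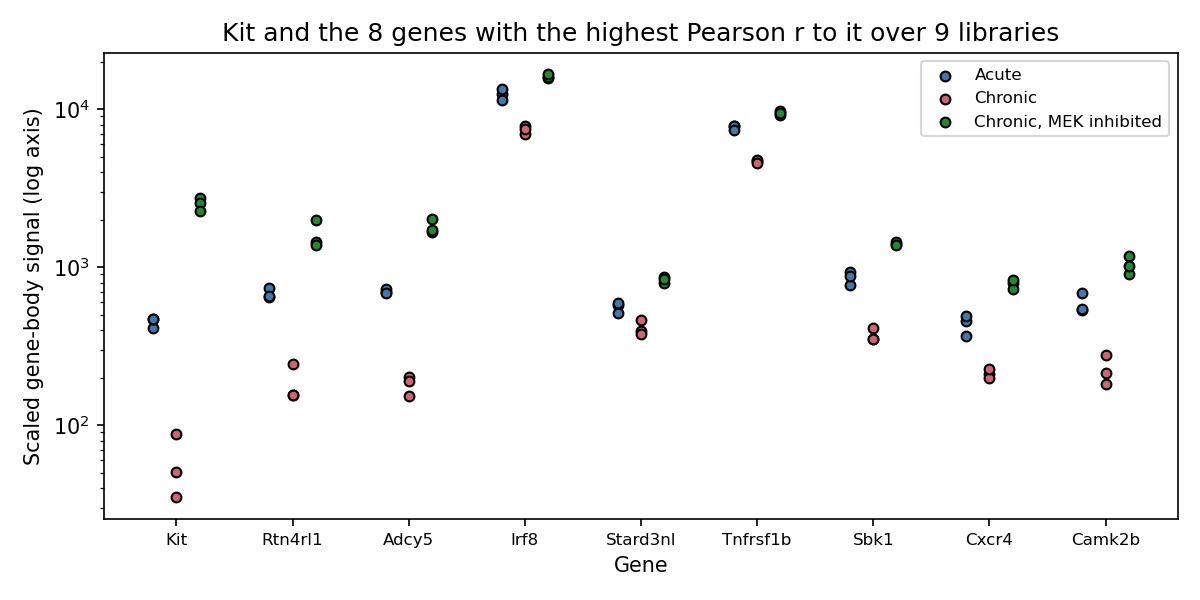
Scaled gene-body signal (log axis) of Kit and the 8 genes with the highest Pearson r to it, 1 point per library, coloured by group. In each gene the chronic libraries lie lowest and the MEK-inhibited ones highest, and the spread from chronic to MEK-inhibited is widest for Kit.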

How the data were processed

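Nascent RNA was captured by click chemistry after labelling with 5-ethynyl uridine and sequenced, per the labels' protocols. The submitters' processing notes name FastQC 0.12.0, Trim Galore 0.6.10, STAR 2.7.0a, SAMtools 1.19.2, deepTools 0.1.9, R 4.1.2 and build mm10; the use of strand and the counted regions are not given in the sources used here. The authors deposited signal per transcript, in one table for the gene body and one for the pause region, 118482 rows each. In each library at least 99.99% of non-zero pause-region values under 200 are whole multiples, within 0.001 steps, of a step that differs between libraries (0.764 to 1.06) and is not a read, so depth in reads is unknown and no counting interval is given.

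Rows were matched to GENCODE M21 by transcript identifier (117346 with version, 383 without, 753 unmatched), and each gene was read from its strongest row by mean gene-body signal. Scale factors came from a trimmed mean of log ratios without weights (30% of ratios and 5% of levels removed at each end). Genes reaching 50 in 3 or more libraries, 15942 for the gene body, were fitted as log2(signal + 5) in limma 3.58.1 (R 4.3.3) with 1 mean per group, an intensity trend and robust moderation, all 9 libraries in 1 fit. The script was tested on simulated data. Joins used Python 3.11.15 with pandas 2.3.3. Kit, the gene lists and the rules were chosen with earlier results of these data known. Named from the lists were the 5 largest called changes per comparison and genes set by name, of which 1 gene is not reported here; Cpa3, Elane, S100a8, Eomes, Il1rl1, Meis1, Cd8a, Cd8b1, Thy1, Cd3e, Cd5, Cd79a, Erg, Cd4 and Zbtb7b were named after their values were seen. The actinomycin D control of the protocol was not analysed here.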

Additional observations from a re-analysis of the deposited data

How the results depend on the processing

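Kit kept its direction and its call in both tested comparisons under every alternative run (scaling, pseudocount, filter, moderation, fit on 2 groups, other transcript rows, each library left out). Without each library in turn its log2 change was -3.28 to -2.66 for chronic against acute, 2.34 to 2.53 for MEK-inhibited against acute and 5.12 to 5.74 for MEK-inhibited against chronic cells. The last was 4.47 in row Kit-202 and 4.35 in row Kit-205; the cause was not tested. Chronic against acute was smallest in row Kit-202, -1.73. Rows Kit-206 and Kit-207 and the pause region were below the filter and not fitted. With no filter, 1637 genes were called between MEK-inhibited and chronic cells and 2642 between MEK-inhibited and acute cells. Without that filter the signalling list had 6 higher and 3 lower with MEK inhibition, and the transcription factor list 4 and 2; with no trend and no robust moderation they had 9 and 3, and 5 and 2. Scaling moved the split of calls: the main 2875 higher and 2528 lower in chronic against acute cells became 1096 and 6846 by library totals, 1134 and 6713 on the deposited scale and 2096 and 3759 by totals without a ribosomal RNA-like locus. For MEK-inhibited against chronic cells the main 1583 and 1219 became 1769 and 741, 1979 and 721, and 1468 and 1217. For MEK-inhibited against acute cells the main 2291 and 1827 became 955 and 4965, 1023 and 4542, and 1572 and 3151. Totals shifted the median gene by -0.49, 0.11 and -0.38. Samples share only a replicate number: 0 of 9 same-numbered pairs had a correlation of deviations over 0.1 (-0.53 to 0.098), and 2 of 9 libraries correlated best with their own number. Pairs from different groups with different numbers ran from -0.37 to 0.51, highest for acute replicate 2 with MEK-inhibited replicate 1. With a replicate block, 5497, 2956 and 4263 genes were called, and Kit had limma adjusted p = 2.5e-08 and 4.8e-07. None of the 8 genes most like Kit by Pearson's r was listed in the top 8 by Spearman's rho (0 shared). However, Rtn4rl1, Stard3nl and Camk2b tied with the last gene listed there, at a rho of 0.95.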

Other observations

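Erg, a factor of blood progenitors, stood out in 1 library: its scaled signal was 7581 in acute replicate 1 and 1805 and 1919 in the other acute libraries, and it was not called in any comparison. Meis1 had a like pattern in acute replicate 3, as given above, and Kit was even across the same acute libraries, at 414.9 to 472.2.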
